A study of Mus musculus with 6 samples.

Results

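The cytosolic ribosomal protein genes were described in RNA-seq of cultured mouse aortic cells from female and male animals. They were taken as the protein coding rows of the count table with an Rpl or Rps symbol, together with Rplp0, Rplp1, Rplp2 and Rpsa, and without the Rps6k kinases. The rule gave 82 of 54532 rows, of which 50 encode proteins of the large subunit and 32 proteins of the small subunit. Of these, 79 passed the filter on low counts and were tested among 14932 genes. Rpl3l, Rpl10l and Rpl39l did not pass.

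The samples were 3 female and 3 male libraries, all labelled as untreated wild-type mouse aortic endothelial cells, kept as primary cultures in F-12 medium with fetal bovine serum, heparin and endothelial growth factors. No source used here gives the strain or age of the mice, or says that the 3 libraries per sex are separate animals or cultures. The p-values below therefore cover the spread among these libraries alone, and that spread may be technical. Libraries held 17410996 to 22993574 counts. Male replicate 3 was least like the rest of its sex, with correlations across genes of 0.962 and 0.969 (log2 CPM), where the other pairs of 1 sex had 0.98 to 0.986, and results are given with and without it where it moves them. Xist was called higher in female libraries, and all 4 Y-linked genes checked were called lower. Of 12 defining endothelial markers, 11 stayed under 1 CPM (counts scaled to library totals, with edgeR's TMM factors) in every library. Among them Cdh5, Tie1, Cldn5 and Robo4 had no count in any library. The 8 fibroblast markers together reached 11810 to 12680 CPM in female libraries and 6520 to 7124 CPM in male libraries, so the defining markers of the labelled cell type were at or near 0 while fibroblast markers were high. In such bulk libraries fewer cells of a type and less RNA per cell cannot be told apart.

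Ribosomal proteins are made in near equal numbers, since each ribosome carries most of them once, and their mRNAs are among the most abundant in growing cells. In mammals these mRNAs begin with a C followed by a run of pyrimidines, the 5′ terminal oligopyrimidine tract, through which mTOR and the RNA-binding protein LARP1 set their translation together. Many of the genes have processed pseudogenes elsewhere in the genome, whose sequence can take up reads in alignment and counting.

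The start of the gene is shown for some of the members named below, from RefSeq on GRCm38.p6. Each run holds 30 bases, of which 15 lie before the annotated start, and capitals mark the longest stretch of C and T that opens with C and has at least 5 bases. No capitals means that the window holds no such stretch. The windows shown do not stand for the group. Those of Rplp0, Rpl5, Rpl11 and Rpl10, for instance, hold no such stretch and are not shown.
Rps6 (chr4:86857353-86857382, minus strand): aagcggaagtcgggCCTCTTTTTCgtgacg
Rpl15 (chr14:18270972-18271001, minus strand): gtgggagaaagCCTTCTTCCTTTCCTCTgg
Rpl35 (chr2:39005117-39005146, minus strand): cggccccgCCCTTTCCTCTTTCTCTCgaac
Rps10 (chr17:27635230-27635259, minus strand): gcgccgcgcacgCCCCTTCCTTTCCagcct
Rps27 (chr3:90213634-90213663, minus strand): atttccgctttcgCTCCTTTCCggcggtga
Rps27rt (chr9:114982725-114982754, minus strand): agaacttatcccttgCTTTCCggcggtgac
Rps4x (chrX:102189377-102189406, minus strand): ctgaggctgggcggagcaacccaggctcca

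The windows of Rps27 and of Rps27rt, a retrotransposed copy of it, share 14 bases in a row. RefSeq promoters were matched for 62 of the 82 members. A C at the annotated start followed by at least 4 pyrimidines stood in 14 of these 62 members (22.6%), and in 3.01% of all 27025 genes of the table. With the place less strict, a C followed by at least 7 pyrimidines within 20 bases of the annotated start stood in 29 members (46.8%). It stood in 14.5% of all genes. The word CCGGAAG, on either strand and within 250 bases before to 50 after the start, was found in 25 of 62 members (40.3%) and in 9.93% of all genes. Read on the other strand this word is itself partly a pyrimidine run, so the matches can overlap. TATAAA, on either strand, was found in 6 members (9.68%) and in 15.7% of all genes. Such matches are descriptions of letters and not of bound sites.

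The members took a similar share of all gene counts in female and male cultures, apart from a single male library. They made up 3.57%, 4.05% and 4.15% of counts in female replicates 1 to 3, against 3.41%, 4.004% and 6.04% in male replicates 1 to 3. The means were 3.92 ± 0.311% in female and 4.48 ± 1.38% in male libraries (SD, n = 3 each). Male replicate 3 stood above every other library, and the 3 female libraries lay above male replicate 1 and below male replicate 3. Large subunit genes contributed 2.31 ± 0.166% in female and 2.64 ± 0.786% in male libraries, and small subunit genes 1.61 ± 0.146% in female and 1.84 ± 0.592% in male libraries.

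**Figure D1:**
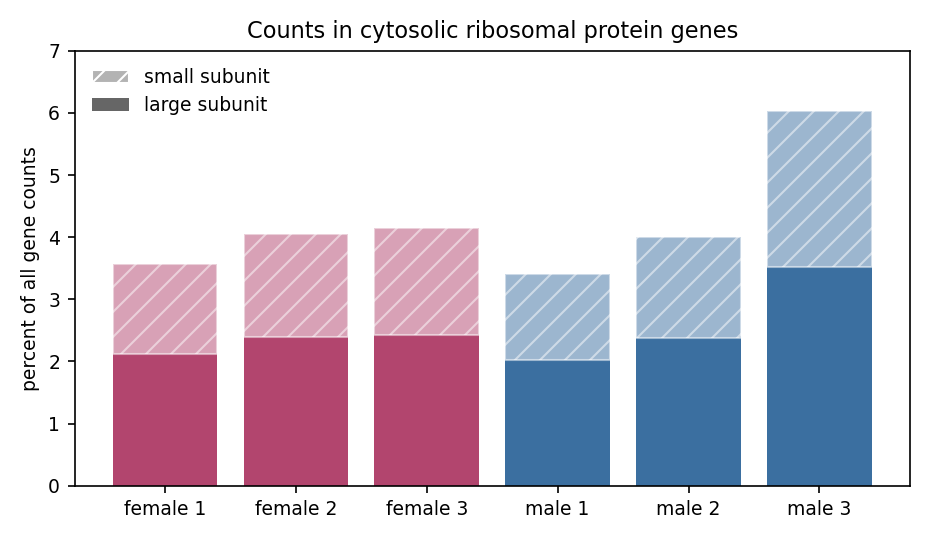
Percent of all gene counts in the 82 cytosolic ribosomal protein genes, for each of 3 female and 3 male libraries, split into large subunit (solid) and small subunit (hatched) genes. Male replicate 3, at 6.04%, is the highest bar, and the other 5 lie between 3.41% and 4.15%.

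Levels per length, given as TPM from the counts and the gene lengths in the table, were highest for Rplp1 and Rplp0, both of the stalk, which recruits elongation factors. The remaining stalk gene, Rplp2, was below the median member, with 719 ± 26.7 TPM in female and 669 ± 183 TPM in male libraries (SD, n = 3 each). Rplp1, an acidic stalk protein, stood at 6344 ± 309 TPM in female and 7534 ± 1765 TPM in male libraries (SD, n = 3 each, as for all means below). Rplp0, the base of the stalk, followed with 3987 ± 237 TPM in female and 3673 ± 385 TPM in male libraries. Next came Rps15, of the head of the small subunit, with 2836 ± 189 TPM in female and 2938 ± 827 TPM in male libraries, which overlapped both neighbours in this order in male libraries. Rpl41, the smallest of the proteins, had 2234 ± 52.1 TPM in female and 2620 ± 797 TPM in male libraries, and Rpl4, which reaches into the exit tunnel, had 2144 ± 110 TPM in female and 2599 ± 341 TPM in male libraries. Rps15, Rpl41 and Rpl4 did not differ beyond their spread in male libraries. Over the 79 tested members the mean level over 6 libraries had a median of 843 TPM and quartiles of 470 and 1287 TPM. The table's length covers all annotated exons of a gene, retained introns included, so genes with long minor transcripts come out lower per length.

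The members moved together between libraries, and most of that movement lay among male libraries. For each tested member the log2 CPM in a library was set against its own mean over the 6 libraries. The median of these deviations over the 79 members was -0.22, -0.07 and -0.01 in female replicates 1 to 3, against -0.27, -0.01 and 0.61 in male replicates 1 to 3. The same medians over all 14932 tested genes lay between -0.01 and 0.02, where the TMM scaling itself keeps them near 0. Of the 79 members, 74 had their highest value in male replicate 3, while 44 had their lowest value in male replicate 1 and 31 in female replicate 1. The library medians had an SD of 0.11 in female and 0.45 in male libraries. Male replicate 3 was above the mean of the other male libraries for all 79 members, by a median of 0.76 on the log2 scale (1.70-fold) with quartiles of 0.69 and 0.84.

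**Figure D2:**
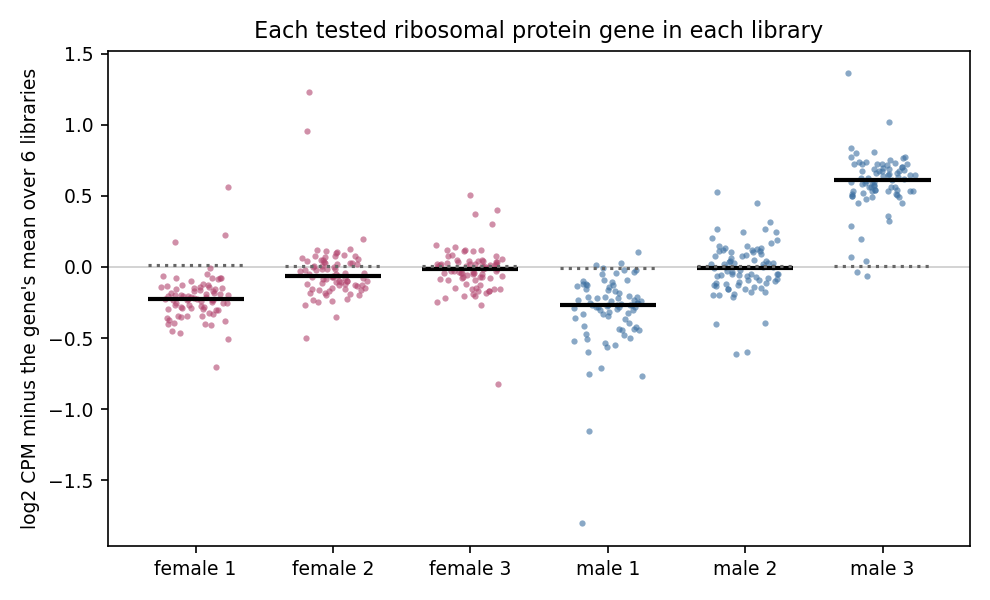
Log2 CPM of each of the 79 tested members minus its own mean over 6 libraries, by library. Solid bars mark the median of the members and dotted bars the median of all 14932 tested genes. The cloud of male replicate 3 sits at a median of 0.61, and the other 5 libraries have medians from -0.27 to -0.01.

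Once the library medians were taken out, little spread was left in most members. The typical SD of a member within a sex was 0.13 in female and 0.46 in male libraries on the log2 CPM scale, against 0.15 and 0.25 for all tested genes. With the library medians removed it was 0.07 in female and 0.11 in male libraries. Large and small subunit genes had nearly the same library medians, 0.62 and 0.61 in male replicate 3 and -0.27 for each in male replicate 1.

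Transcript length moved with the same libraries. Among tested genes that were no members, the 1119 with a table length under 1000 bases had a median deviation of 0.30 in male replicate 3 and -0.13 in male replicate 1, and the 5636 over 5000 bases had -0.15 in male replicate 3 and 0.12 in male replicate 1. Tested members had a median table length of 1739 bases, against 4003 bases for all tested genes. With an offset for length in each library, the median log2 fold change of the members was -0.26, close to the value without it. That median compares the sexes, so it does not show the part of length in the spread among male libraries, which was not tested. With the offset 16 members were called lower (20.3%), against 12.4% of all genes in that fit (12.2% higher).

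The summed level of smooth muscle markers was higher in every male library than in every female library, which was not so for the members. The 5 markers together reached 114 to 117 CPM in female and 138 to 173 CPM in male libraries. Most of this was Smtn, with 110, 114 and 111 CPM in female and 124, 121 and 144 CPM in male libraries. Smtn was not called (-0.215 ± 0.107, edgeR adjusted p = 0.218). Myh11, Tagln and Cnn1 stayed below 2 CPM throughout, and 1 of the 3 tested was called lower in female. The one called was Acta2, smooth muscle actin, with 3.25, 2.48 and 3.98 CPM in female libraries and 17.3, 16.4 and 27.3 CPM in male libraries (-2.64 ± 0.26, edgeR adjusted p = 7.6e-05), so that male replicate 3 was the highest library here as well. The 3 tested had a median deviation of 1.52 in male replicate 3, against values from -1.06 to 0.82 in the other 5 libraries. Tagln, among these 3, had only 15, 3 and 1 counts in female and 11, 17 and 22 counts in male libraries. The 4 macrophage markers together had 2.65 to 3.88 CPM in female and 2.92 to 3.13 CPM in male libraries, with Ptprc at 0 counts in all 6. Of the 8 fibroblast markers, 5 rose and 1 fell in female libraries, and their median deviation in male replicate 3 was -0.58. The part of these cell types and of transcript length in the shift was not tested.

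No member was called different between the sexes. edgeR's quasi-likelihood test called 0 of 79 members at an adjusted p under 0.05, against 18.3% of all tested genes (9.68% higher and 8.62% lower in female), and the smallest adjusted p of a member was 0.108. At an unadjusted p under 0.05 there were 7 members (8.86%), against 29.7% of all tested genes. DESeq2 called 2 members lower (Rps2 and Rps4x), where it called 10.8% of all genes lower and 11.2% higher. Limma-voom with quality weights, which down-weights unusual libraries, called 12 lower and 1 higher, where it called 22% of all genes lower and 22.1% higher. With no filter on low counts 25 of 80 were called lower and 2 higher, where 6.66% of all genes were called lower and 6.66% higher. The sexes did not overlap for 4 members, all lower in female (Rpl4, Rps2, Rps4x and Rpl15), or 5.06%, against 35.9% of all tested genes in either direction, 16.7% lower and 19.2% higher in female.

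The log2 fold change of female over male was below 0 for 72 of 79 members (91.1%), against 51% of all tested genes. Its median was -0.28 over the members, with quartiles of -0.39 and -0.13, and -0.01 over all tested genes. That shift rested on 1 library. Without male replicate 3 the median over the members was 0.04, the fold change was below 0 for 31 of 79, and 3 members were called higher in female (Rpl37a, Rplp2 and Rps20) and 0 lower, where 16.2% of all genes were called higher and 16.4% lower. Without male replicate 1 the median was -0.47 and 18 members were called lower (22.8%), where 8.18% of all genes were called lower and 8.56% higher. The median over large subunit genes was -0.29 and over small subunit genes -0.24.

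**Figure D3:**
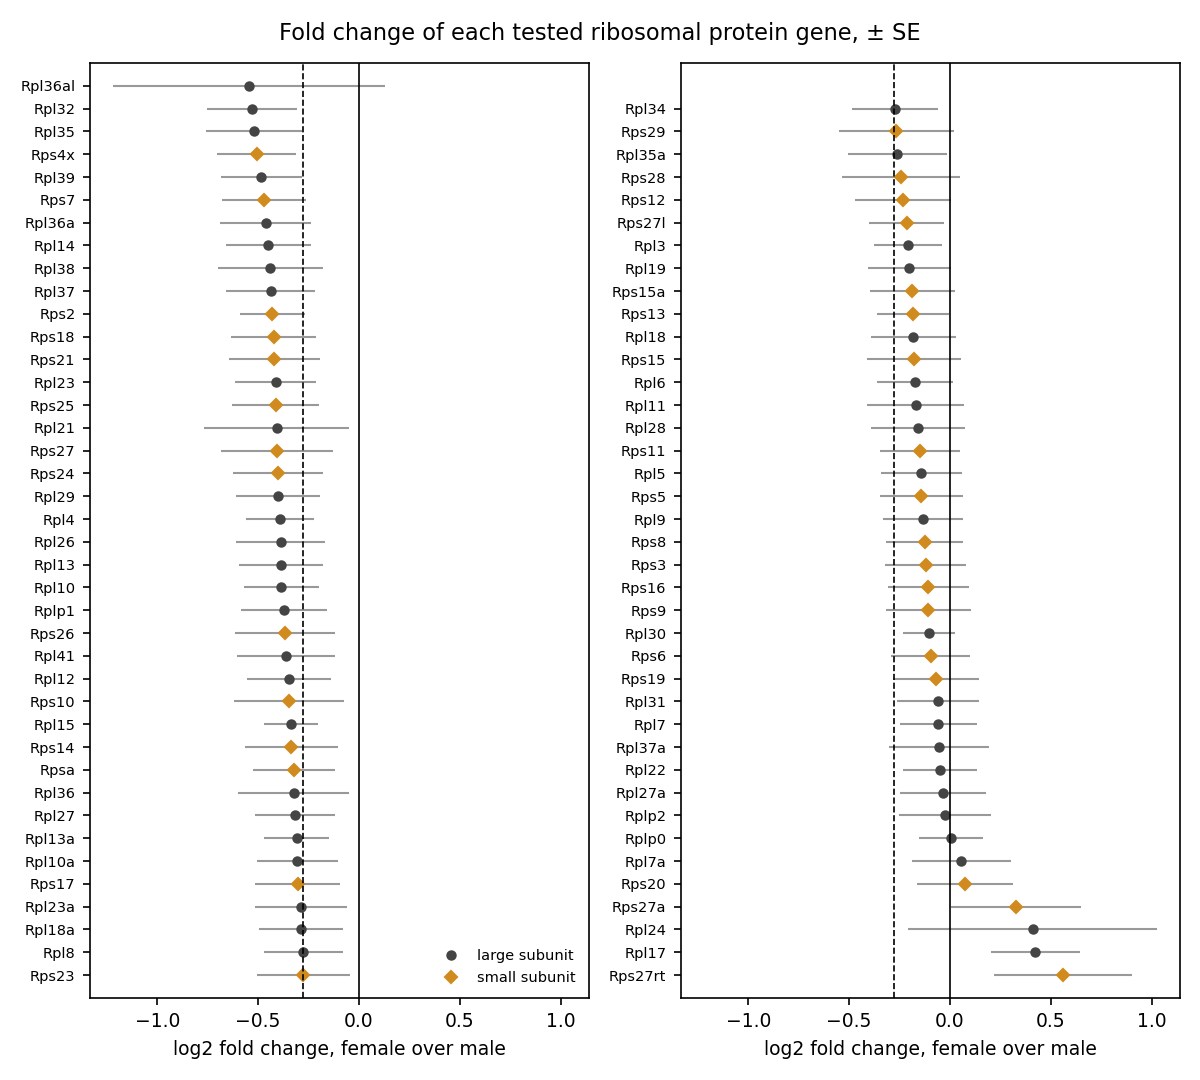
Log2 fold change of female over male with its SE for each of the 79 tested members, sorted from the lowest at the upper left to the highest at the lower right, with circles for large subunit and diamonds for small subunit genes. The solid line marks no change and the dashed line the members' median of -0.28. Most members lie in a narrow band below 0, and Rps27a, Rpl24, Rpl17 and Rps27rt stand to its right.

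The members with the smallest p were all lower in female libraries and none passed the adjusted test. Rps2, of the mRNA entry side of the small subunit, had 767, 848 and 834 CPM in female libraries and 907, 992 and 1400 CPM in male libraries (-0.43 ± 0.16 as log2 fold change and SE, edgeR adjusted p = 0.108). Rpl4 had 1174, 1298 and 1368 CPM in female libraries and 1411, 1481 and 2145 CPM in male libraries (-0.39 ± 0.17, edgeR adjusted p = 0.151). In both genes the highest female library lay just under the lowest male library, and male replicate 3 was far above the rest. Rpl15, of the large subunit, had 325, 338 and 343 CPM in female libraries and 345, 444 and 481 CPM in male libraries (-0.34 ± 0.13, edgeR adjusted p = 0.125). It was among the members with the smallest excess in male replicate 3, at 0.30 over the mean of the other male libraries on the log2 scale. Rpl32, Rps7 and Rpl35, the last of these near the exit of the tunnel, had log2 fold changes of -0.53 ± 0.22, -0.47 ± 0.21 and -0.52 ± 0.24 (edgeR adjusted p = 0.148, 0.168 and 0.179). Their libraries overlapped between the sexes. Without male replicate 3 the log2 fold changes were smaller, at -0.22 for Rps2, -0.18 for Rpl4 and -0.24 for Rpl15. They were -0.19 for Rpl32, -0.17 for Rps7 and -0.18 for Rpl35.

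All 4 X-linked members lay on the lower side of the group. Rps4x, a small subunit gene of the X chromosome, had 764, 890 and 1021 CPM in female libraries and 1031, 1083 and 1687 CPM in male libraries (-0.51 ± 0.20, edgeR adjusted p = 0.116), with no overlap by a narrow margin. Rpl39, which lines the exit tunnel, had 234, 248 and 243 CPM in female libraries and 247, 303 and 464 CPM in male libraries (-0.48 ± 0.20, edgeR adjusted p = 0.142). The ranges touched, since female replicate 2 and male replicate 1 were nearly equal. For Rpl10, which joins the large subunit late in its maturation, it was -0.38 ± 0.19, and for Rpl36a -0.46 ± 0.23 (edgeR adjusted p = 0.207 and 0.211). Without male replicate 3 the log2 fold changes were -0.25 for Rps4x, -0.19 for Rpl39, -0.12 for Rpl10 and -0.14 for Rpl36a. In that fit the median over all tested members was 0.04. With all libraries, the median over the 4 was -0.47. On other chromosomes with at least 3 tested members the medians ran from -0.47 (3 members on chromosome 12) to -0.06 (3 members on chromosome 1), with -0.38 over the 8 on chromosome 9 and -0.14 over the 14 on chromosome 7. The differences between chromosomes were not tested.

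By role, the stalk genes Rplp0 and Rplp2 had fold changes above the members' upper quartile of -0.13, while Rplp1 was below the median. Rpl5 and Rpl11, of the 5S particle, lay above the median and within the quartiles. Members of other roles lay higher still, such as Rps20 (0.08) and Rps27a (0.33), and differences by role were not tested. Rplp0 had 1776, 2029 and 2099 CPM in female libraries and 1659, 1779 and 2437 CPM in male libraries (0.01 ± 0.16, edgeR adjusted p = 0.983). Its female libraries lay inside the male range. The other stalk genes, Rplp1 (-0.37 ± 0.21) and Rplp2 (-0.03 ± 0.23), had edgeR adjusted p = 0.285 and 0.957. Without male replicate 3, Rplp2 was called higher in female, at 0.32 (edgeR adjusted p = 0.0161).

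Rpl5 and Rpl11, which carry the 5S rRNA into the ribosome and can bind the p53 regulator Mdm2, had log2 fold changes of -0.14 ± 0.20 and -0.17 ± 0.24 (edgeR adjusted p = 0.698 for each). Rps6, the target of the S6 kinases, had 740, 879 and 906 CPM in female libraries and 736, 747 and 1213 CPM in male libraries (-0.10 ± 0.20, edgeR adjusted p = 0.797). Its female libraries fell inside the male range. Rpl22, an RNA-binding protein of the large subunit, had -0.05 ± 0.18 (edgeR adjusted p = 0.888), and all 4 of these genes turned sign without male replicate 3.

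The paralogues known for restricted tissues were nearly silent. Rpl10l and Rpl39l, both known from male germ cells of the mouse, had 0 counts in all 6 libraries, where a count of 0 allows 0.128 to 0.171 CPM per library (3 counts, counting error only). Rpl3l, known from heart and skeletal muscle, had 0, 0 and 4 counts in female libraries and 0, 1 and 0 in male libraries. Their widely used partners were abundant, such as Rpl3 with 975 ± 93.2 CPM over female and 1126 ± 275 CPM over male libraries. Rps27l, a p53-responsive paralogue of Rps27, had 75.9, 87.7 and 86.8 CPM in female libraries and 76.7, 85.0 and 129 CPM in male libraries (-0.22 ± 0.18, edgeR adjusted p = 0.496). The female libraries spanned about the same values as male replicates 1 and 2.

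The outlying member was Rps27rt, the intronless copy of Rps27 on chromosome 9 (114982366 to 114982739 in the table's coordinates, inside the span of Osbpl10 on the other strand). Its log2 fold change of 0.56 ± 0.34 was 0.84 above the median of the members, and it was not called (edgeR adjusted p = 0.324). It had 58.8, 186 and 127 CPM in female libraries and 96.7, 63.1 and 91.6 CPM in male libraries. Female replicate 2 was the highest and female replicate 1 the lowest, so the female libraries spanned the male ones. Without female replicate 1 it was called higher in female, at 0.89 (edgeR adjusted p = 0.0314), and in that fit 6.42% of all genes were called higher and 6.4% lower. Without female replicate 2 it had 0.14.

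Rps27 itself had 288, 216 and 321 CPM in female libraries and 236, 310 and 545 CPM in male libraries (-0.41 ± 0.28, edgeR adjusted p = 0.378). Female replicate 2, where Rps27rt was highest, was the lowest library for Rps27. The rows summed to 347, 401 and 447 CPM in female libraries and 333, 373 and 637 CPM in male libraries. In the sum the female libraries fell between male replicate 1 and male replicate 3. Of the 100-base windows of Rps27rt transcripts, 89.5% also stood in transcripts of other genes, most of all Rps27, so the division of reads between these rows is uncertain.

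Rpl17, at the exit of the tunnel, showed the same kind of dependence. It had 255, 145 and 213 CPM in female libraries and 176, 113 and 168 CPM in male libraries (0.42 ± 0.22, edgeR adjusted p = 0.243), with female replicate 2 inside the male range. Its 11 pseudogene rows held 74.2% of the counts of gene and pseudogenes together. Summed with them, Rpl17 had 540, 604 and 628 CPM in female libraries and 676, 703 and 1085 CPM in male libraries, and the log2 fold change was -0.48 (edgeR adjusted p = 0.108). The sum was lower in every female library than in every male library, so adding the pseudogene rows turned the direction.

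Rps27a, made as a fusion with ubiquitin, had 325, 265 and 397 CPM in female libraries and 125, 322 and 340 CPM in male libraries (0.33 ± 0.32, edgeR adjusted p = 0.557). Male replicate 1 was far below all other libraries, and without it the log2 fold change was -0.01. Rps20, of the head of the small subunit, had 545, 624 and 635 CPM in female libraries and 387, 497 and 828 CPM in male libraries (0.08 ± 0.24, edgeR adjusted p = 0.869). Without male replicate 3 it was called higher in female, at 0.44 (edgeR adjusted p = 0.00244), with its female libraries above male replicates 1 and 2.

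Rpl30, of the large subunit, was high in male replicate 3 by less than most members and was chosen after its values were seen. It had 239, 259 and 297 CPM in female libraries and 252, 289 and 314 CPM in male libraries (-0.10 ± 0.13, edgeR adjusted p = 0.645). Its excess in male replicate 3 over the other male libraries was 0.22 on the log2 scale, where the median member had 0.76. Of its 100-base transcript windows, 43.3% also stood in transcripts of genes that overlap its locus.

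A few members had very low counts. Rps10, a small subunit protein, had 3.06, 3.43 and 4.15 CPM in female libraries and 3.29, 4.37 and 5.92 CPM in male libraries, while its pseudogene row Rps10-ps2 had 166, 179 and 174 CPM in female libraries and 164, 198 and 300 CPM in male libraries. Pseudogene rows thus held 98% of the counts of Rps10 and its pseudogenes together. Rpl24 had 14, 31 and 9 counts in female libraries and 16, 12 and 13 counts in male libraries, so that its log2 fold change of 0.41 ± 0.62 rested on few reads. The gene Gm28037 overlaps 47% of the exonic bases of Rpl24 on the same strand, and 75.8% of the windows of Rpl24 transcripts also stood in genes elsewhere.

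Rpl36al, a close relative of Rpl36a, had 24, 16 and 20 counts in female libraries and 5, 32 and 45 counts in male libraries (-0.55 ± 0.67, edgeR adjusted p = 0.648). The gene Gm49383 overlaps 24.5% of its exonic bases on the same strand. Rpl13a had 31.7 ± 2.08 CPM over female and 39.4 ± 8.63 CPM over male libraries, and genes of its own locus overlap 35.4% of its exonic bases. The levels of these 4 genes are those of the deposited rows, and the part of the overlaps and copies in them was not tested.

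**Figure D4:**
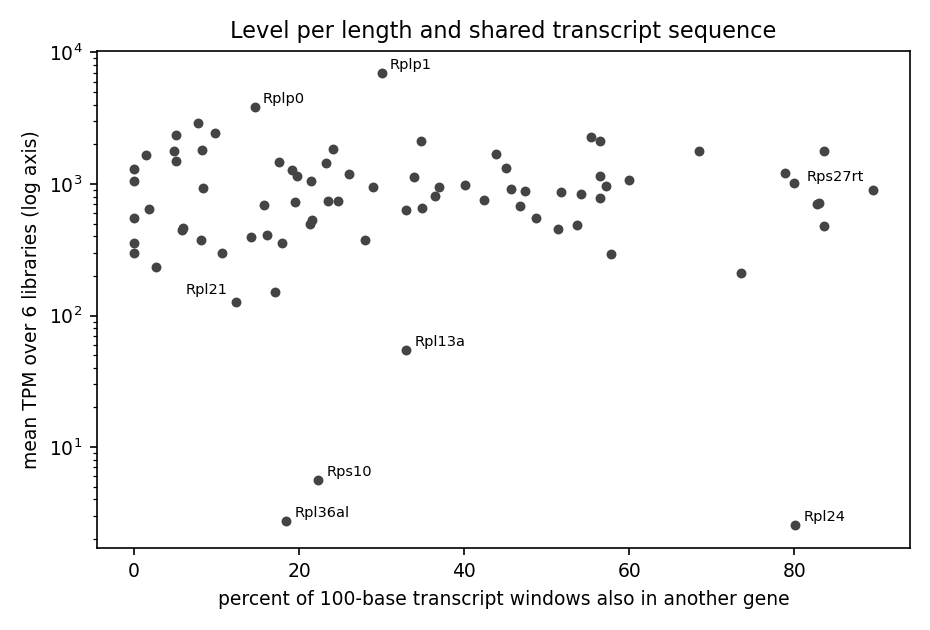
Mean TPM over 6 libraries (log axis) of each of the 79 tested members against the percent of its 100-base transcript windows that also stand in a transcript of another gene, in GENCODE M21. Rps10, Rpl36al, Rpl24 and Rpl13a lie far below the other members, at 5.61, 2.74, 2.54 and 54.2 TPM, and members with many shared windows are found at all other levels.

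Shared sequence was common in the group. Only 9 of 82 members had no 100-base window in a transcript elsewhere, and 17 had more than 50% of their windows elsewhere. The 36 tested members with under 20% of windows elsewhere had a median log2 fold change of -0.27 with an SD of 0.16 over members, and the 17 with 50% or more had -0.21 with an SD of 0.27.

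Other genes of the pathway were described by the same fit, in lists chosen with earlier results known. Of all tested genes, 18.3% were called and 51% had a log2 fold change below 0. How far the fold changes of these lists rest on male replicate 3 was not tested. Of ribosomal protein genes under other names, Fau had -0.27 ± 0.20 and Rack1 -0.35 ± 0.17, and neither was called (edgeR adjusted p = 0.437 and 0.206). Of the paralogues outside the rule, Rpl22l1 had -0.65 ± 0.25 and Rpl7l1 -0.16 ± 0.14, and neither was called (edgeR adjusted p = 0.111 and 0.488). Of 24 tested translation factors and other genes with or near this type of mRNA start, 0 were called and 22 had a log2 fold change below 0, with a median of -0.18. Among them the elongation factor gene Eef1a1 averaged 8565 CPM over female and 11010 CPM over male libraries (-0.36 ± 0.14, edgeR adjusted p = 0.12). Their median deviation was 0.42 in male replicate 3 and between -0.19 and 0.03 in the other 5 libraries.

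Ribosome biogenesis genes had a median deviation of 0.19 in male replicate 3. Of 39 tested, 1 rose in female libraries and 0 fell, with a median log2 fold change of -0.09. The gene that rose was Rrs1, needed for assembly of the large subunit, with means of 69.2 CPM over female and 34.1 CPM over male libraries (1.02 ± 0.14, edgeR adjusted p = 0.000536). Of 13 tested genes that control these mRNAs or ribosome synthesis, among them Mtor, Larp1 and Myc, 0 were called, the median log2 fold change was -0.11, and the median deviation in male replicate 3 was -0.14. Myc, a transcription factor that drives ribosome synthesis, had -0.24 ± 0.11 (edgeR adjusted p = 0.176).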

How the data were processed

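RNA-seq counts of 6 libraries, 3 per sex, were used. The deposited table holds whole-number read counts per gene, which the authors left unnormalized. HISAT2 2.0.5 and featureCounts 1.5 are named in the submitters' processing notes, but no source used here gives the build or strand setting. Of the 82 members, 80 have the same coordinates in GENCODE M21 (GRCm38). The gene length, another column the authors deposited, gave TPM.

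All genes were fitted with edgeR 4.0.16 (R 4.3.3): TMM scaling, filterByExpr (minimum count 10), robust quasi-likelihood F test, sex as the factor, Benjamini-Hochberg adjustment over 14932 genes, called under 0.05. SE is the log2 fold change over the root of F. Log2 CPM used a prior count of 1. Copies were 100-base windows matched exactly to other genes' M21 transcripts. DESeq2 1.42.0, limma 3.58.1, other scalings and filters, a length offset and left-out libraries were alternatives.

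Members and lists were chosen with earlier results of these data known. Named members were those with an unadjusted p under 0.05, the 5 highest and 5 lowest fold changes, the member furthest from the median, the 5 highest TPM, X-linked members, paralogues, and members by role. Rpl30, Rpl37a, Rps10 and Rpl13a were chosen after their values were seen, and the split of members by shared windows was added after seeing the data. 1 gene of these lists is not reported here.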

Additional observations from a re-analysis of the deposited data

Results flagged for a closer look

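Reads also lay on rows that the comparison leaves out. The 291 rows named as pseudogenes of a member held 222730 counts over the 6 libraries, or 4.14% of the counts of members and these rows together, well above 3 counts per library. Among them were Rpl17-ps10 with 31703 counts, Rpl17-ps3 with 30865 counts and Rps10-ps2 with 23984 counts. As a share of all counts these rows held 0.143%, 0.173% and 0.168% in female replicates 1 to 3 and 0.157%, 0.179% and 0.272% in male replicates 1 to 3, so that male replicate 3 was the highest here too.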

How the results depend on the processing

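Under every alternative, the median log2 fold change and the share of counts moved by less than the spread between libraries. That spread was the SD within a sex, pooled over the sexes (0.329 for the median, 0.999 percentage points for the share). Male replicate 3 widens it, so it cannot show whether the results rest on that library. Without male replicate 3 both turned sign, the median from -0.28 to 0.04 and the share, female minus male, from -0.562 to 0.215 percentage points. The median was -0.47 to 0.04 with each library left out and -0.08 in limma-voom with quality weights. The number of members called depended on the setting: 2 lower in DESeq2, 1 higher and 12 lower in limma-voom with quality weights, 2 higher and 25 lower with no filter on low counts, 16 lower with the length offset, and 0 to 3 higher and 0 to 18 lower with each library left out, most without male replicates 3 and 1. The cause was not tested. With the replicate number as a block (replicate block), 1 was higher (Rpl17) and 3 lower (Rpl35, Rps4x and Rps7), where 10.8% of all genes were called higher and 9.7% lower. Deviations of same-numbered libraries correlated at 0.192, 0.00214 and 0.143, so the numbers were not taken as pairs, since the highest value for female replicate 2 was with male replicate 3, at 0.0867, and 1 pair was under 0.1.

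Signs near 0 turned. Rplp0 had -0.004 with RLE scaling, -0.004 in DESeq2 and -0.018 with the length offset, Rpl17 -0.48 when summed with its pseudogenes, Rplp2 0.033 on library totals, 0.22 in limma-voom and 0.041 with the block, and Rpl22 0.008 on library totals and 0.16 in limma-voom. In limma-voom Rpl3 had 0.004, Rpl5 0.051, Rpl11 0.083 and Rps6 0.17. With each library left out, log2 fold changes spanned -1.05 to 0.18 for Rpl36al, -0.14 to 0.44 for Rps20, -0.01 to 0.56 for Rps27a, -0.41 to 0.79 for Rpl24, -0.10 to 0.19 for Rplp0 and -0.42 to 0.14 for Rps15. They spanned -0.32 to 0.009 for Rpl3, -0.64 to 0.006 for Rps27, -0.36 to 0.044 for Rps27l, -0.23 to 0.32 for Rplp2, -0.30 to 0.14 for Rpl5, -0.39 to 0.18 for Rpl11, -0.22 to 0.18 for Rps6 and -0.18 to 0.20 for Rpl22. Low counts limit Rpl24 and Rpl36al, with 9 to 31 and 5 to 45 counts per library, and left Rpl3l, Rpl10l and Rpl39l untested. The reason for these low counts was not tested.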
